A study of Mus musculus with 24 samples.

Results

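The genes described here encode the ATPases and core subunits of the SWI/SNF chromatin remodeling complexes. They are the ATPase genes Smarca4 and Smarca2, the core genes Smarcb1, Smarcc1, Smarcc2 and Smarce1, the paralogs Smarcd1, Smarcd2 and Smarcd3, and the actin-related gene Actl6a. These 10 genes were taken by symbol from the 25229 gene symbols of the count table, and all 10 passed the filter on low counts that left 12941 genes to test. The libraries came from ID8 P53 KO, a mouse ovarian cancer cell line that carries a knockout of P53 in every group, so that no group has intact P53. Cells received DMSO (the vehicle), AU15330 at 2.5 µM, cisplatin at 750 nM, or both drugs at these doses (the combination), in each case for 6 days. The cisplatin dose is that of the labels, and the study's methods give another concentration for this cell line. Each of the 4 groups held 6 libraries, numbered 1 to 6, and the labels name no separate cultures beyond these numbers, so p-values measure the spread between these libraries. AU15330 is a PROTAC, a compound that brings its target proteins, here the SWI/SNF ATPases, to a ubiquitin ligase for degradation, and cisplatin is a platinum drug that crosslinks DNA. Because AU15330 acts on protein, the mRNA levels below do not check the treatment labels. The comparisons ask how the mRNA of the complex stood when its ATPase proteins were targeted, with and without cisplatin.

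SWI/SNF complexes use the energy of ATP to slide or evict nucleosomes, which opens promoters and enhancers to transcription factors. Every complex holds either SMARCA4 (BRG1) or SMARCA2 (BRM) as its motor, bound to a core of SMARCC and SMARCD proteins that in the BAF and PBAF forms, though not in ncBAF, also takes in SMARCB1 and SMARCE1, and the paralogs of a family occupy the same position. Subunit genes are mutated in many cancers, and loss of both ATPases is known from a rare, aggressive ovarian tumor.

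Reads on genes amounted to 17592588 to 25260009 per library, and the members had at least 365 counts in every library. The coefficient of variation between libraries ran from 1.95%, for Smarcd3 with AU15330, to 19.1%, for Smarce1 with DMSO, and includes counting error. Levels are given as CPM (counts per 1000000 of the library's TMM-scaled total), which are shares of a library, and a gene's amount of RNA per cell was not measured. Replicate 1 deviated most from its group's mean in each of the 4 groups, with a root mean square deviation over tested genes of 0.298 to 0.417 on the log2 scale, and values without replicate 1 are given where they change a call. Summed CPM of 9 epithelial and mesothelial markers, fitting the ovarian surface epithelium from which ID8 was derived, ranged from 3513 to 5309 with DMSO, 1018 to 1150 with AU15330, 4178 to 4854 with cisplatin and 1223 to 1404 with the combination, with 7, 5, 8 and 6 of the 9 above 1 CPM. Krt19 lay between 1398 and 2518 CPM with DMSO and between 4.15 and 14.4 CPM with AU15330, the highest group mean of Epcam was 0.05 CPM, and the part of this shift in the members' levels was not tested. Immune, endothelial and fibroblast or muscle lists did not exceed 53.0 summed CPM in any library. Most of the immune sum was Cd68, a lysosomal gene of macrophages, at 11.8 ± 5.69 CPM with DMSO and 34.8 ± 15.7 CPM with AU15330 (log2 fold change 1.56, adjusted p = 3.16e-05, edgeR), while Ptprc, which marks all leukocytes, was at most 0.08 CPM in any group mean. Pecam1, the endothelial gene that was tested, was lower with AU15330 than with DMSO, from 3.60 to 0.458 CPM. Of the fibroblast or muscle list, Des was lower (6.56 to 0.363 CPM) and Pdgfra, the other gene tested, was higher (0.923 to 1.70 CPM, log2 fold change 0.90, adjusted p = 0.00872), and the part of these markers in the members' levels was not tested. Cisplatin is used in the study to bring about senescence, a lasting arrest of the cell cycle, whereas 15 of 15 proliferation markers were higher in the libraries labelled cisplatin than in those labelled DMSO, against 26% of all tested genes called higher. Proliferation itself was not measured in these libraries, and samples were grouped by their labels. Scaling by library totals in place of TMM moved the median log2 fold change of all tested genes to 0.13 for AU15330 against DMSO, 0.10 for the combination against cisplatin and 0.07 for cisplatin against DMSO. The split of calls moved from 4681 higher and 4816 lower to 5618 and 3973 for AU15330 against DMSO, and from 3360 higher and 3329 lower to 3977 and 2529 for cisplatin against DMSO. For the interaction the split moved from 2313 higher and 2048 lower to 1791 and 2506.

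With AU15330 alone, mRNA of the complex moved in both directions. Smarca4, Smarcc2 and Smarcd3 were higher than with DMSO, and Smarca2, Smarcb1, Smarce1 and Smarcd2 were lower. These 7 of 10 members stand against a background of 73.4% of all tested genes called, a share near the background and so no result about the members. The median size of the members' log2 fold changes was 0.42, below the 0.53 of all tested genes.

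Cisplatin alone was accompanied by changes in 6 members, against 51.7% of tested genes called. Smarca4, Smarcd3 and Actl6a were higher and Smarcb1, Smarcd1 and Smarcd2 were lower, with a median size of 0.21 for the members and 0.28 for all tested genes. Adding AU15330 to cisplatin changed 6 members against a background of 68.1%, with Smarca4, Smarcc2 and Smarcd3 higher and Smarca2, Smarce1 and Smarcd2 lower. Adding cisplatin to AU15330 changed 3 members against 41.7%, with Actl6a higher and Smarcc2 and Smarcd3 lower. The effect of AU15330 differed with and without cisplatin in 4 members (Smarca4, Smarca2, Smarcb1 and Smarcd3) against 33.7% of tested genes, a test of the interaction in the same fit. The interactions of the other members did not pass, at −0.08 for Smarcc1, −0.28 for Smarcc2, 0.10 for Smarce1, 0.16 for Smarcd1, 0.10 for Smarcd2 and 0.03 for Actl6a (adjusted p from 0.154 to 0.886). Without the replicate 1 libraries, the members called numbered 8, 7, 6, 4 and 4 in these comparisons, in the order given. Over fits with a library or replicate number left out, all genes called ranged from 8983 to 9685, 5824 to 6826 and 8213 to 8958 in the first comparisons. For the combination against AU15330 they ranged from 4501 to 5623, and for the interaction from 3265 to 4732. The member counts of these fits are no result about the members. With replicate numbers as a block, the combination against AU15330 called 4 members, Smarca2 (lower) being added, against 6185 of 12941 tested genes. The comparisons share libraries, since the 6 DMSO libraries serve both single drugs and the AU15330 and cisplatin libraries serve again beside the combination, so a value in one is not independent of a value in another.

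**Figure D1:**
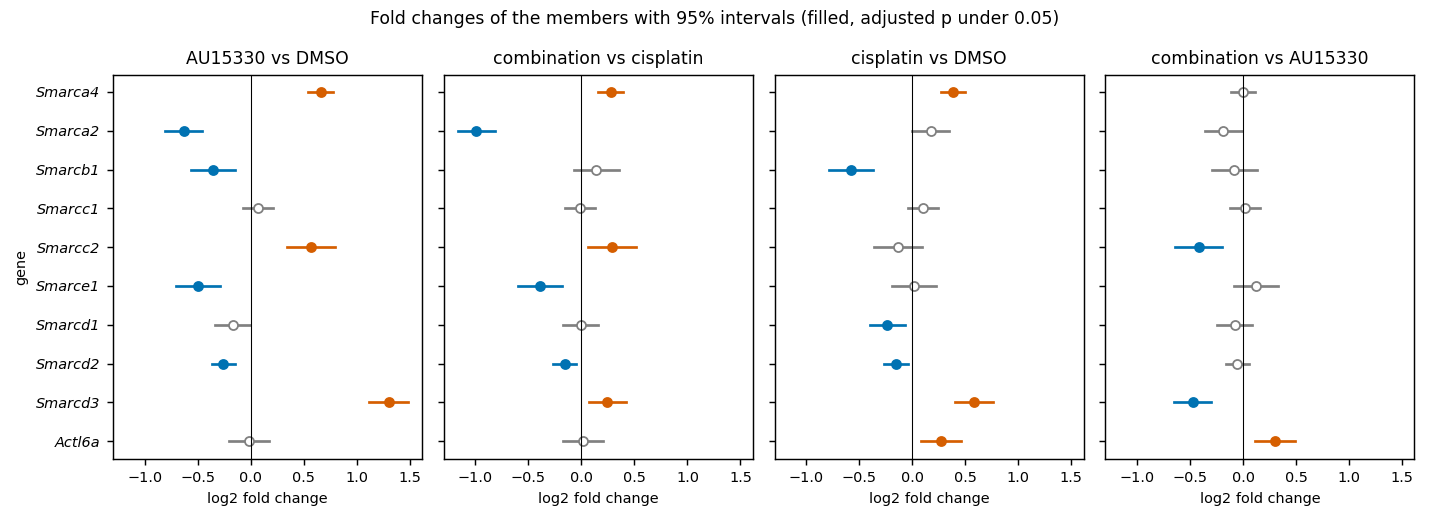
Log2 fold change (horizontal axis) of each member (vertical axis) in 4 comparisons, from edgeR with 95% intervals. Filled points passed an adjusted p of 0.05 (orange higher, blue lower). Smarca2 lies to the left and Smarca4 and Smarcd3 to the right in both comparisons that add AU15330.

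Divided by exon length, the members spanned a wide range. Per kb of exon, with DMSO, Smarcc2 stood at 41.4 ± 7.04 CPM per kb (SD, n = 6), Smarca4 at 37.8 ± 3.13 and Smarca2 at 30.8 ± 3.12. At the other end were Smarcb1 at 13.4 ± 2.46, Actl6a at 7.48 ± 0.624 and Smarcd3 at 4.41 ± 0.791 CPM per kb. In this order of 10 genes only 2 of the 9 neighbouring pairs had libraries that did not overlap, Smarcb1 above Actl6a and Actl6a above Smarcd3. With AU15330, Smarcc2 (61.5 ± 4.60 CPM per kb) and Smarca4 (59.8 ± 1.65 CPM per kb) overlapped each other and lay above all other members, Smarca2 was sixth at 19.9 ± 1.38, and Smarcd3 reached 10.8 ± 0.212 CPM per kb. Exon length was the union of the exons of all annotated isoforms, from 3.59 kb for Smarcd2 to 14.3 kb for Smarca2, and isoforms that these cells do not use would lower a gene's value. The summed CPM of the 10 members was 1590 ± 103 with DMSO, 1649 ± 18.4 with AU15330, 1674 ± 82.2 with cisplatin and 1515 ± 37.4 with the combination.

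**Figure D2:**
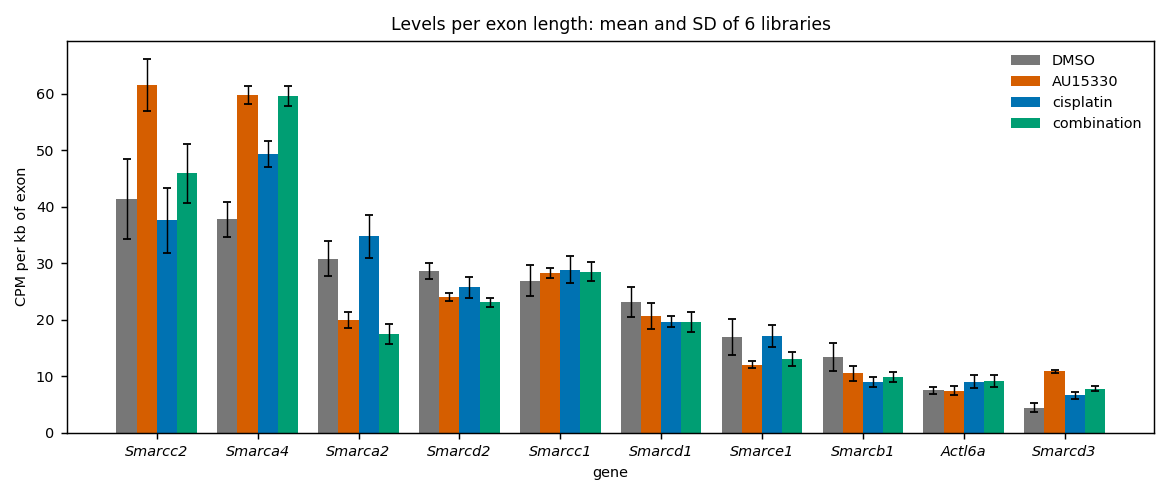
Level of each member in CPM per kb of exon (vertical axis, from 0), as bars for the mean and error bars for the SD of 6 libraries in each of the 4 groups, ordered by the DMSO level. Smarcc2 and Smarca4 were the tallest bars with AU15330, at 61.5 and 59.8 CPM per kb.

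The RefSeq promoter table holds 9 of the 10 members, and the windows of 300 bases around the start sites of 3 genes whose mRNA moved most with AU15330 are shown, from 250 bases before the start site to 50 after it, 5′ to 3′ along the gene. Capitals mark GC boxes (GGGCGG on either strand, overlapping matches included) and, in Smarca2, the letters CCGGAA (an extended form of the ETS core, on either strand), which do not overlap a GC box here. The Smarca4 window lies at chr9:21615919-21616218 (plus strand), that of Smarca2 at chr19:26604910-26605209 (plus strand) and that of Smarcd3 at chr5:24601953-24602252 (minus strand), all in GRCm38.p6. The Smarca4 start site is the 5′ end of the annotated gene, and that of Smarca2 lies 110 bases inside it. The Smarcd3 window stands at an internal start, 22.4 kb inside the gene from its 5′ end and 10 bases from the annotated start of the transcript Smarcd3-201, and those of Smarcc1, Smarcd2 and Actl6a are internal too, by 14.3, 5.34 and 2.25 kb. Which start these cells use was not measured.
Smarca4: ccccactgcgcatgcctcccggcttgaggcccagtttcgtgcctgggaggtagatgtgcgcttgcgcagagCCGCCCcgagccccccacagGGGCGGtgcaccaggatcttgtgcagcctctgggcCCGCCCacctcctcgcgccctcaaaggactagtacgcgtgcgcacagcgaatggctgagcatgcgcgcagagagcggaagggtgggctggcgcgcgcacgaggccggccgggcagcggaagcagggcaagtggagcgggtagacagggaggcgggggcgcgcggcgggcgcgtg
Smarca2: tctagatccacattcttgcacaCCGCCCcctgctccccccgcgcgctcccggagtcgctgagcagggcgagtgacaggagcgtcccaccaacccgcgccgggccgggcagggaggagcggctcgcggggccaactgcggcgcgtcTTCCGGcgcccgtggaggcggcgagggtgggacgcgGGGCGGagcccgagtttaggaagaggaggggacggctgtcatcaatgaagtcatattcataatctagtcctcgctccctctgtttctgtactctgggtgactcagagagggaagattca
Smarcd3: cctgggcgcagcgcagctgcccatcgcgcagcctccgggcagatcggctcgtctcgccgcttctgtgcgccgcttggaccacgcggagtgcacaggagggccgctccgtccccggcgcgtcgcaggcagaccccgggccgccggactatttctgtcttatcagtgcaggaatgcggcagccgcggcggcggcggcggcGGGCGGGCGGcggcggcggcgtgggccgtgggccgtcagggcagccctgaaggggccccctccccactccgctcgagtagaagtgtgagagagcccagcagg
A GC box was found in all 9 member windows and in 35.7% of the 32851 windows of the table. GC content was 55% in Smarcd2 and 60.7% to 81.0% in the other 8 windows, above the median of 52.7% over the table. Among the 14253 windows with at least 55% GC, 68.5% held a GC box. The letters CCGGAA were in the windows of Smarca2, Smarcc1 and Smarcd1 and in 14.9% of all windows. A TATAAA run was in the Smarcd2 window (13.6% of all windows), and the letters CCAAT and CACGTG were in none of the 9, against 37.4% and 7.15% of all windows. The 3 windows shown shared the GC box, and of them only that of Smarca2 held CCGGAA. Shorter forms of the ETS core were not searched for, and the part of these letters in the changes with AU15330 was not tested.

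The ATPase genes moved in opposite directions when AU15330 was added. Smarca4 (chr9:21616169-21704230, plus strand, mm10), which encodes the motor BRG1, rose by a factor of 1.58 with AU15330. The lowest, median and highest of the 6 libraries were 217.6, 250.1 and 264.6 CPM with DMSO and 377, 383 and 402 CPM with AU15330. Every AU15330 library lay above every DMSO library. On the log2 scale the rise was 0.66 (standard error, SE, 0.0554, adjusted p = 4.55e-11, edgeR), a size that 42.8% of tested genes exceeded. With cisplatin, Smarca4 ran from 292 through a median of 322 to 333 CPM, above DMSO without overlap, higher by 0.38 on the log2 scale (SE 0.0553, adjusted p = 2.35e-06). With the combination it ran from 373 through 387 to 397.5 CPM, above cisplatin without overlap and over the same range as AU15330 alone. The log2 fold change was 0.27 (SE 0.0552, adjusted p = 9.38e-05) against cisplatin, and −0.00 (95% interval −0.12 to 0.11, adjusted p = 0.963) against AU15330. AU15330 added less in the presence of cisplatin than in its absence, by 0.39 on the log2 scale (interaction −0.39, SE 0.0780, adjusted p = 0.000435). The order of the group means was AU15330, combination, cisplatin and DMSO, in which only the first pair overlapped.

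Smarca2 (chr19:26605050-26778322, plus strand), which encodes the alternative motor BRM, was lower in both groups that received AU15330. With DMSO the libraries ran from 370.4 through a median of 445 to 481 CPM, and with AU15330 from 246 through 289 to 302 CPM. The groups did not overlap, and the log2 fold change was −0.63 (SE 0.0842, adjusted p = 2.35e-07). With cisplatin the libraries ran from 398 through 517 to 536 CPM and with the combination from 200.4 through 256 to 273 CPM, again without overlap. The log2 fold change of the combination against cisplatin was −0.99 (SE 0.0846, adjusted p = 8.63e-11), equal to a factor of 0.503, and the fall was deeper with cisplatin than without it (interaction −0.36, SE 0.119, adjusted p = 0.0205). Without the replicate 5 libraries that interaction was −0.33 (adjusted p = 0.0789). Cisplatin alone overlapped DMSO, at 0.17 (95% interval −0.00 to 0.35, adjusted p = 0.0843). This last value passed the threshold without replicate 1 of cisplatin (0.23, adjusted p = 0.0180), without replicate 2 of DMSO (0.21, adjusted p = 0.0388) in DESeq2 (0.19, adjusted p = 0.0475), under library totals (0.25, adjusted p = 0.0150) and without replicate 1 of every group (0.20, adjusted p = 0.00754). The combination against AU15330 gave −0.19 (95% interval −0.36 to −0.01, adjusted p = 0.0773), and −0.19 with adjusted p = 0.0237 once replicate numbers entered as a block, these being the groups where same-numbered libraries deviated together. It also passed without replicate 1 of AU15330 (−0.23, adjusted p = 0.0335) or of every group (−0.21, adjusted p = 0.00940), in DESeq2 (−0.20, adjusted p = 0.0368), with its size factors, without the low-count filter and in a fit of only these 2 groups (adjusted p from 0.0345 to 0.0488).

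**Figure D3:**
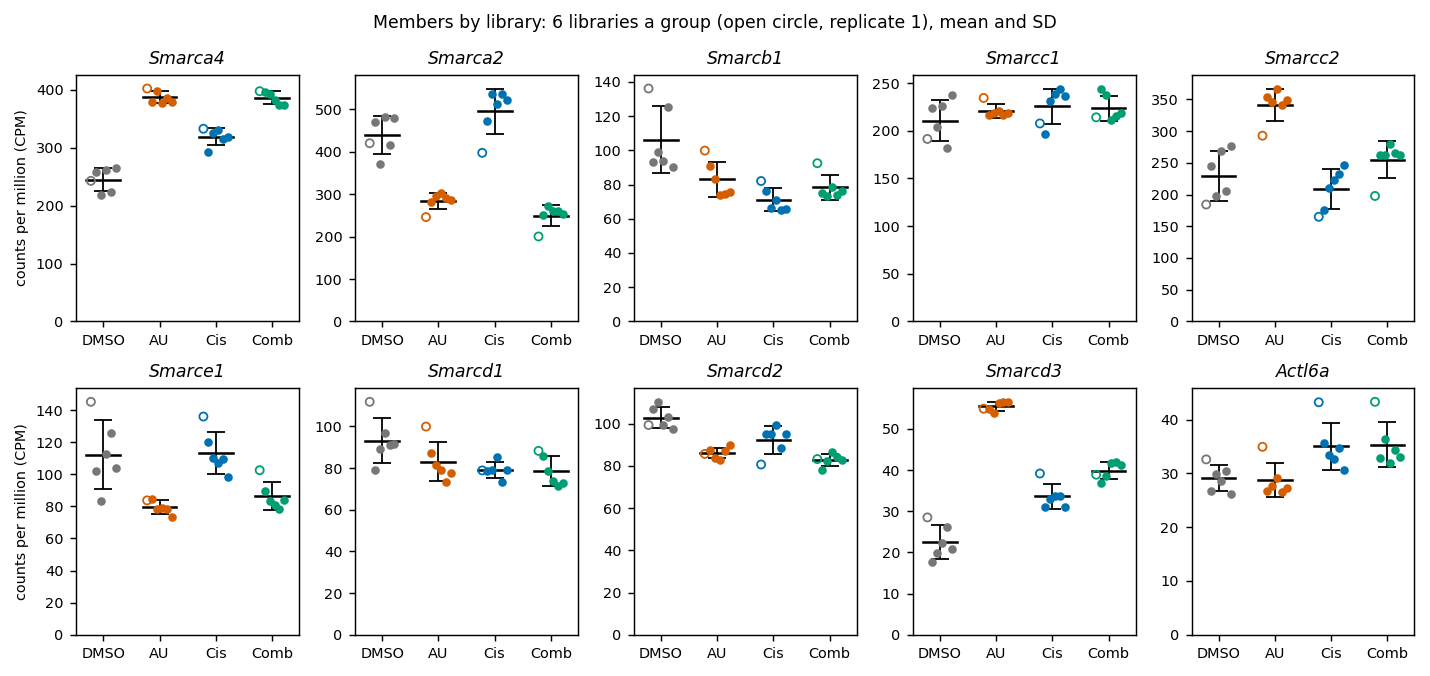
CPM (vertical axis, from 0) of the 10 members in each of the 24 libraries, with the mean and SD of 6 libraries; open circles are replicate 1, and AU, Cis and Comb stand for AU15330, cisplatin and combination. Smarca4 is lowest with DMSO, Smarca2 is lowest with AU15330 and the combination, and Smarcd3 is highest with AU15330.

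Within a library, the ratio of Smarca4 to Smarca2 counts needs no scaling between libraries. It is a ratio of reads and not of molecules, since the genes differ in length. With DMSO the ratio was 0.558 ± 0.0199 (SD, n = 6), with values from 0.538 to 0.587, and with AU15330 it was 1.37 ± 0.134, from 1.25 to 1.63. Cisplatin gave 0.651 ± 0.0926, from 0.589 to 0.837, and the combination 1.56 ± 0.212, from 1.44 to 1.98. Smarca2 reads outnumbered Smarca4 reads in all 12 libraries without AU15330, and Smarca4 reads outnumbered Smarca2 reads in all 12 with it. The mean log2 ratio differed by 1.29 between AU15330 and DMSO, by 1.26 between the combination and cisplatin, and by 0.21 between cisplatin and DMSO, each at an adjusted p of 0.00649 in an exact two-sided permutation test, from the smallest p that 6 libraries against 6 allow (0.00216), adjusted over 12 tests. The difference between cisplatin and DMSO ran from 0.14 to 0.25 with libraries or replicate numbers left out. For the combination against AU15330 the difference was 0.19 (adjusted p = 0.0909, exact permutation test). With same-numbered libraries as pairs the exact test gave an adjusted p of 0.0469, from the smallest p that 6 pairs allow. Without replicate 1 of AU15330 it was 0.24 (adjusted p = 0.0130, exact permutation test), and without replicate 1 of every group 0.17 (adjusted p = 0.0136). Replicate 1 had the highest ratio in each of the 3 treated groups.

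Of the core genes, Smarcc2 rose with AU15330, Smarcb1 and Smarce1 fell, and Smarcc1 did not pass the test in any comparison. Smarcc1 and Smarcc2 encode paralogous scaffold proteins around which the complex assembles. Smarcc2 (chr10:128459248-128490482, plus strand) ran from 184 through a median of 225 to 277 CPM with DMSO and from 293 through 347 to 367 CPM with AU15330, without overlap. The log2 fold change was 0.57 (SE 0.108, adjusted p = 3.84e-05). With cisplatin Smarcc2 was at 209 ± 32.2 CPM and overlapped DMSO (−0.14, adjusted p = 0.297), and with the combination it was at 255 ± 28.8 CPM. The combination was lower than AU15330 alone without overlap (−0.42, SE 0.108, adjusted p = 0.00280). It was higher than cisplatin with overlapping libraries (0.29, SE 0.108, adjusted p = 0.0209), a call that was lost without replicate 1 of cisplatin (0.23, adjusted p = 0.0629) or replicate 2 of cisplatin (0.24, adjusted p = 0.0576), and when replicate 2, 3 or 4 of every group was left out (0.24 to 0.28, adjusted p = 0.0509 to 0.0978).

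Smarcc1 (chr9:110117708-110240178, plus strand) was at 211 ± 21.7 CPM with DMSO, 221 ± 6.87 with AU15330, 226 ± 18.7 with cisplatin and 223 ± 13.4 with the combination. Its log2 fold changes lay between −0.01 and 0.10 in the 4 comparisons of groups, and the interval for AU15330 against DMSO ran from −0.07 to 0.21. With scaling by library totals it passed the threshold for AU15330 against DMSO (0.20, adjusted p = 0.00913) and for cisplatin against DMSO (0.17, adjusted p = 0.0315). The ratio of Smarcc1 to Smarcc2 counts was 0.928 ± 0.0861 with DMSO, 0.651 ± 0.0746 with AU15330, 1.09 ± 0.0992 with cisplatin and 0.886 ± 0.115 with the combination (SD, n = 6). The log2 ratio was lower by 0.51 with AU15330 than with DMSO, a difference of −0.51 (adjusted p = 0.00649, exact permutation test). Cisplatin against DMSO gave 0.24 (adjusted p = 0.0223), the combination against cisplatin −0.31 (adjusted p = 0.0216) and the combination against AU15330 0.44 (adjusted p = 0.0104), by the same exact permutation test. The call for cisplatin against DMSO was lost without replicate 2, 4 or 5 of every group (0.21 to 0.23, adjusted p = 0.0680 to 0.0816) and in the first lane, and that for the combination against cisplatin without replicate 2, 3 or 4 of every group (−0.31 to −0.27, adjusted p = 0.0635 to 0.0680), by exact permutation.

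Smarcb1 (chr10:75896769-75921617, minus strand) encodes the subunit that anchors the complex to the nucleosome's acidic patch and is lost in rhabdoid tumors. Its libraries ran from 89.97 through a median of 96.2 to 136 CPM with DMSO, from 73.9 through 79.4 to 99.8 CPM with AU15330 and from 65.1 through 68.8 to 82.0 CPM with cisplatin. Cisplatin lay below DMSO without overlap (−0.58, SE 0.101, adjusted p = 3.12e-05), and AU15330 overlapped DMSO while passing the test (−0.36, SE 0.101, adjusted p = 0.00266). Under scaling by library totals the AU15330 difference was −0.23 with an adjusted p of 0.0532. The combination, at 78.3 ± 7.21 CPM, did not pass against cisplatin (0.14, adjusted p = 0.225) or against AU15330 (−0.08, adjusted p = 0.537). The interaction was 0.50 (SE 0.142, adjusted p = 0.00888), and 0.40 (adjusted p = 0.0654) without the replicate 5 libraries. Replicate 1 held the highest Smarcb1 level in each of the 4 groups.

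Smarce1 (chr11:99209047-99231017, minus strand), whose protein binds DNA through an HMG domain, was lower wherever AU15330 was added. The 6 libraries ran from 83.1 through a median of 108 to 145 CPM with DMSO and from 73.3 through 78.7 to 84.8 CPM with AU15330, and the ranges overlapped at their ends. The log2 fold change was −0.49 (SE 0.0993, adjusted p = 8.32e-05). The combination, at 86.5 ± 8.74 CPM, was below cisplatin, at 113 ± 13.04 CPM, with overlap (−0.39, SE 0.0990, adjusted p = 0.00114). Cisplatin against DMSO gave 0.02 (95% interval −0.19 to 0.22, adjusted p = 0.903), and the combination against AU15330 gave 0.12 (95% interval −0.09 to 0.33, adjusted p = 0.351).

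The paralogs Smarcd1, Smarcd2 and Smarcd3 encode interchangeable subunits that link the complex to transcription factors, and SMARCD3 is best known from heart and muscle. Smarcd3 (chr5:24590818-24624411, minus strand) was the least abundant of them and had the widest changes of all 10 members with AU15330 alone. Its libraries ran from 17.8 through a median of 21.5 to 28.5 CPM with DMSO and from 54.0 through 55.7 to 56.5 CPM with AU15330, without overlap. The log2 fold change was 1.30 (SE 0.0868, adjusted p = 4.58e-13), a factor of 2.46 and a size that 23.2% of tested genes exceeded. With cisplatin Smarcd3 ran from 31.1 through 33.3 to 39.2 CPM, above DMSO without overlap (0.58, SE 0.0864, adjusted p = 3.96e-06). With the combination it ran from 36.8 through 40.1 to 41.9 CPM, below AU15330 without overlap (−0.48, SE 0.0846, adjusted p = 6.08e-05) and above cisplatin with overlap (0.24, SE 0.0850, adjusted p = 0.0130). This last call was lost without the low-count filter (0.21, adjusted p = 0.0504) and when replicate 3, 4 or 6 of every group was left out (0.21 to 0.23, adjusted p = 0.0528 to 0.0680). The mean with both drugs lay between the means with cisplatin and with AU15330. The interaction was −1.06 (SE 0.121, adjusted p = 2.47e-07), and 12.5% of tested genes had an interaction of greater size. The gene Chpf2, on the opposite strand, shares 2466 exon bases with Smarcd3, or 48.2% of its exon length. Chpf2 was at 110.3 ± 18.6 CPM with DMSO, 70.9 ± 5.43 with AU15330, 89.6 ± 7.27 with cisplatin and 59.5 ± 4.59 with the combination, and so fell by 0.64 on the log2 scale with AU15330 (adjusted p = 2.63e-07) where Smarcd3 rose. The library kit marks strand, but whether the counting used it is not given in the sources used here, so reads in the shared stretch cannot be told apart. Protein-coding genes on the opposite strand also share exon bases with Actl6a (Mrpl47, 11.6% of its exon length), Smarcd1 (Gm17349, 7.13%, not among the table's symbols) and Smarcc1 (Dhx30, 1.57%). With AU15330 against DMSO, Mrpl47 stood at 0.16 (adjusted p = 0.2204) and Dhx30 at 0.21 (adjusted p = 0.00509) on the log2 scale.

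Smarcd2 (chr11:106263179-106272972, minus strand) fell from 103 ± 5.04 CPM (DMSO) to 86.1 ± 2.56 CPM (AU15330), without overlap (−0.26, SE 0.0525, adjusted p = 0.000104, and −0.28 to −0.13 under the alternative settings). It was also lower with the combination (82.8 ± 2.83 CPM) than with cisplatin (92.4 ± 6.66 CPM), with overlap (−0.16, SE 0.0525, adjusted p = 0.00985), a call that was lost under scaling by library totals (−0.09, adjusted p = 0.110) and without replicate 2 of every group (−0.13, adjusted p = 0.0585). Cisplatin against DMSO gave −0.15 (SE 0.0525, adjusted p = 0.0158). That call was lost without replicate 2 of DMSO (−0.12, adjusted p = 0.0625), without replicate 3 of DMSO (−0.11, adjusted p = 0.0862) and under library totals (−0.08, adjusted p = 0.193), as well as without replicate 3 or 5 of every group (adjusted p = 0.121 and 0.0635) and in a fit of only these 2 groups (adjusted p = 0.0749). Smarcd1 (chr15:99702129-99713991, plus strand) was at 93.2 ± 10.8 CPM with DMSO, 83.1 ± 9.43 with AU15330, 79.0 ± 3.79 with cisplatin and 78.5 ± 7.10 with the combination, and every pair of neighbouring groups in this order overlapped. It passed the test for cisplatin against DMSO (−0.24, SE 0.0791, adjusted p = 0.0137), although not without replicate 1 of DMSO (−0.16, adjusted p = 0.0803), without replicate 3 of every group (−0.23, adjusted p = 0.0607) or under library totals (−0.16, adjusted p = 0.0901). AU15330 against DMSO gave −0.17 (95% interval −0.33 to −0.00, adjusted p = 0.0618), and it passed without replicate 1 of AU15330 (−0.23, adjusted p = 0.0100) or replicate 2 of DMSO (−0.20, adjusted p = 0.0250), without replicate 1 or 2 of every group (adjusted p = 0.0146 and 0.0235) and in the fit blocked on replicate number (adjusted p = 0.0223). The value ran from −0.18 to −0.04 under the other settings and from −0.23 to −0.0997 with libraries or replicate numbers left out. The ratio of Smarcd1 to Smarcd2 counts, from 0.858 ± 0.0602 with cisplatin to 0.966 ± 0.115 with AU15330, did not pass the exact permutation test in any of the 4 comparisons (adjusted p from 0.110 to 0.814), while the combination against cisplatin passed without replicate 1 of cisplatin (difference 0.18, adjusted p = 0.0422) and without replicate 1 of every group (0.15, adjusted p = 0.0317), by the same exact test. The combination gave −0.01 (adjusted p = 0.929) against cisplatin for Smarcd1 and −0.08 (adjusted p = 0.431) against AU15330, and Smarcd2 gave −0.06 (adjusted p = 0.415) against AU15330.

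Actl6a (chr3:32706298-32726973, plus strand) encodes an actin-related protein that binds the ATPase directly and is typical of dividing progenitor cells. It was at 29.1 ± 2.42 CPM with DMSO, 28.7 ± 3.17 with AU15330, 35.0 ± 4.36 with cisplatin and 35.3 ± 4.19 with the combination. Both groups with cisplatin were higher than their counterparts without it, at 0.27 for cisplatin against DMSO (SE 0.0898, adjusted p = 0.0139) and 0.30 for the combination against AU15330 (SE 0.0898, adjusted p = 0.00922), with overlapping libraries in both. The first of these was 0.20 (adjusted p = 0.0539) without replicate 1 of cisplatin and 0.24 (adjusted p = 0.0571) without replicate 2 of every group, and the second was 0.28 (adjusted p = 0.0537) without replicate 3 of every group. The comparisons that add AU15330 did not pass, with −0.02 (95% interval −0.20 to 0.17, adjusted p = 0.880) against DMSO and 0.01 (95% interval −0.17 to 0.20, adjusted p = 0.908) for the combination against cisplatin. Replicate 1 was the highest library in all 4 groups. In the comparisons that add cisplatin, 15 of 15 proliferation markers were also higher, in cisplatin than in DMSO (median log2 fold change 2.54, against 26% of all tested genes called higher) and in the combination than in AU15330 (1.84, against 22.2%). In those that add AU15330, where Actl6a did not pass the test, 15 of 15 were higher in AU15330 than in DMSO (1.00, against 36.2% of all tested genes) and 7 of 15 in the combination than in cisplatin (0.36, against 35.4%). Their summed level ran from 484 to 730.0 CPM with DMSO, 932 to 1678 with AU15330, 2130 to 2862 with cisplatin and 3048 to 3717 with the combination, and the part of proliferation in the levels of Actl6a and of the other members was not tested.

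The subunits that tell apart the BAF, PBAF and ncBAF forms of the complex, with other accessory subunits, made a second list of 21 genes, of which 16 were tested. With AU15330 against DMSO, 5 were higher and 6 lower, with a median log2 fold change of 0.05, where 73.4% of all tested genes were called. The greatest rise was in Bicral, an ncBAF subunit, from 58.5 ± 16.5 to 144 ± 16.2 CPM (1.30, SE 0.166, adjusted p = 1.13e-07). The greatest fall was in Phf10, a PBAF subunit, from 157 ± 21.1 to 46.6 ± 4.03 CPM (−1.75, SE 0.0845, adjusted p = 5.63e-16). With the combination against cisplatin (68.1% of all tested genes called), 5 were higher and 4 lower, from Arid1a, the BAF subunit often mutated in ovarian cancers (1.01, SE 0.120, adjusted p = 4.16e-08), to Bicra, the ncBAF paralog of Bicral (−1.07, SE 0.181, adjusted p = 1.09e-05). Cisplatin against DMSO (51.7%) called 3 higher and 2 lower, from Dpf1 (0.72, adjusted p = 0.000293) to Phf10 (−0.52, adjusted p = 7.45e-06). The combination against AU15330 (41.7%) called 3 higher and 1 lower, with Phf10 at 0.38 (adjusted p = 0.000579) and Bicral at −0.68 (adjusted p = 0.00164). In the interaction (33.7%) 3 were higher and 2 lower, with Phf10 at 0.91 (adjusted p = 1.51e-06) and Arid1b at −0.40 (adjusted p = 0.0433).

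Among 17 tested ATPase genes of other remodelers, AU15330 against DMSO called 10 higher and 4 lower, with a median log2 fold change of 0.29, where 73.4% of all tested genes were called. Chd9, a CHD family gene, rose from 82.6 ± 24.7 to 352 ± 56.5 CPM (2.09, SE 0.171, adjusted p = 2.80e-11), and Smarca1, an ISWI ATPase gene, fell from 18.5 ± 3.40 to 9.16 ± 0.611 CPM (−1.01, SE 0.107, adjusted p = 4.50e-09). The combination against cisplatin (68.1% of all tested genes called) called 4 higher and 2 lower, with Chd9 at 2.00 (adjusted p = 8.58e-11) and Smarca1 at −2.50 (adjusted p = 2.47e-16). Cisplatin against DMSO (51.7%) called 2 higher and 3 lower, with Hells, a gene of replicating cells, at 1.72 (adjusted p = 2.10e-10) and Chd9 at −0.59 (adjusted p = 0.00417). The combination against AU15330 (41.7%) called 2 higher and 8 lower, with Hells at 1.53 (adjusted p = 4.38e-09) and Smarca1 at −1.03 (adjusted p = 8.87e-08). The interaction (33.7%) called 1 higher, Smarca5 (0.26, adjusted p = 0.0224), and 3 lower, with Smarca1 at −1.49 (adjusted p = 4.75e-08).

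**Figure D4:**
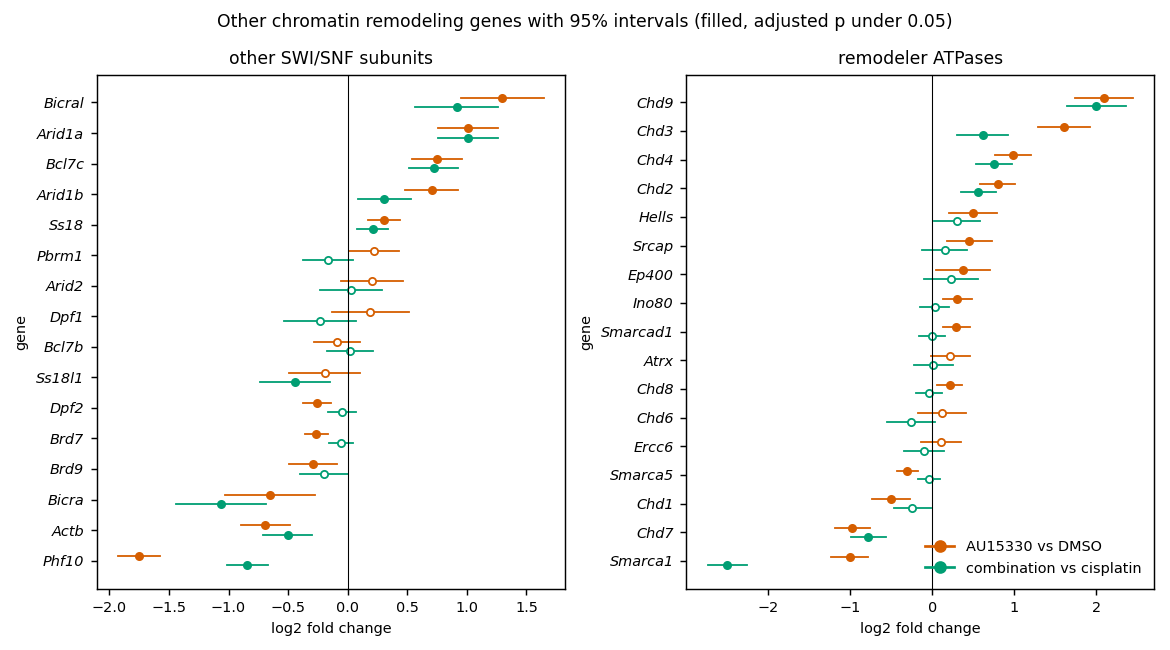
Log2 fold change (horizontal axis) with 95% intervals of 16 other SWI/SNF subunit genes (left) and 17 other remodeler ATPase genes (right), for AU15330 against DMSO and the combination against cisplatin. Filled points passed an adjusted p of 0.05. Bicral and Chd9 lie farthest right and Phf10 and Smarca1 farthest left for AU15330 against DMSO, at 1.30, 2.09, −1.75 and −1.01.

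The genes whose log2 CPM followed the ATPase genes most closely were sought among 6510 genes with a mean log2 CPM of at least 5, over the 24 libraries, which fall into 4 treatment groups and share the scaling. For Smarca4 they were Tlr3 (Pearson r = 0.975), Bid (0.973) and Sptan1 (0.970), each of them higher with AU15330 than with DMSO, at log2 fold changes of 4.26, 1.87 and 1.42. For Smarca2 they were Spata13 (r = 0.982), Zfp462 (0.980) and Abcc5 (0.979), each lower with AU15330 than with DMSO, at −0.59, −1.41 and −1.39. For the combination against cisplatin the log2 fold changes were 2.08, 1.03 and 0.76 in the first set and −1.27, −1.97 and −1.96 in the second. In both comparisons the genes of each set moved in the direction of the ATPase gene they were chosen to resemble, a likeness that the choice itself brings.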

How the data were processed

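RNA from 24 libraries of ID8 P53 KO cells was prepared with a directional kit after poly(A) enrichment and read from a single end. The authors deposited raw read counts per gene symbol, and the submitters' processing notes name STAR 2.7.1a, DESeq2 1.36.0 and mm10; the counting tool, its use of strand and the annotation are not given in the sources used here. The 48 columns were matched to libraries by name, with 0 left over, and counts of the 2 lanes were added, giving 17592588 to 25260009 counts.

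Genes were filtered with filterByExpr and tested in one fit of the 24 libraries with edgeR 4.0.16 (R 4.3.3), using TMM factors and group means, by its quasi-likelihood test on 20 residual degrees of freedom. Benjamini-Hochberg adjustment ran over 12941 genes, and an adjusted p below 0.05 made a call. Standard errors are the log2 fold change divided by the square root of F, and log2 CPM used a prior count of 2. Ratios of paralogs were tested by exact two-sided permutation of log2 ratios with 0.5 added to each count. The script was tested on simulated data. Coordinates and exon lengths came from GENCODE M21 and promoters from RefSeq GRCm38.p6, both of the mm10 assembly.

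The members and lists were chosen with earlier results of these data known. All 10 members are named in every comparison, with the 3 genes most like each ATPase gene and the called genes at both ends of each comparison list. Chpf2, Mrpl47, Dhx30 and Gm17349, the protein-coding genes among those that overlap members, were added after the values were seen. Replicate numbers pair samples only where every same-numbered correlation of deviations from the group means exceeded 0.1, which held for the combination and AU15330 (0.101 to 0.483) and not elsewhere (lowest −0.133), with 16 of 24 pairs above 0.1. Alternatives were DESeq2 1.42.0, its size factors, library totals, no filter, the replicate block, only the groups compared, a minimum fold change of 1.2, the first lane and each library or replicate number left out.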

Additional observations from a re-analysis of the deposited data

Results flagged for a closer look

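In 8 of 40 groups of 6 libraries, where chance gives about 2 (1 in 20), a member's most distant library stood apart from the other 5 by more than Dixon's critical share of the range, and in all 8 it was replicate 1. These groups share the same 24 libraries, so the flags are not independent of each other. Replicate 1 also deviated most over all tested genes in every treatment group, and the share of all tested genes so flagged was not taken. With AU15330, replicate 1 was low for Smarca2 (246 CPM, nearest 282, share of the range 0.645) and for Smarcc2 (293 CPM, nearest 340.4, share 0.641). It was high for Smarcc1 (234 CPM, nearest 220.3, share 0.773) and for Actl6a (34.9 CPM, nearest 29.1, share 0.703). With the combination, replicate 1 was low for Smarca2 (200.4 CPM, nearest 251, share 0.695) and Smarcc2 (198 CPM, nearest 262, share 0.788), and high for Smarcb1 (92.4 CPM, nearest 78.6, share 0.719). With cisplatin, replicate 1 was high for Smarcd3 (39.2 CPM, nearest 33.7, share 0.675).

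The effect of AU15330 differed with and without cisplatin in 4 members by the interaction test in edgeR. The log2 differences of the effects were −0.39 for Smarca4, −0.36 for Smarca2, 0.50 for Smarcb1 and −1.06 for Smarcd3.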

How the results depend on the processing

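Of 1410 values of the members' log2 fold changes under the alternatives, 122 changed their side of the threshold or their direction, and 60 of these had the opposite sign, all of them values that did not pass the test in the main analysis. Requiring a fold change above 1.2 left 5 members called for AU15330 against DMSO, where the calls of Smarcb1 and Smarcd2 were lost (adjusted p = 0.107 and 0.401), 3 for cisplatin against DMSO, 1 for the combination against cisplatin (Smarca2), 1 for the combination against AU15330 (Smarcd3) and 1 in the interaction (Smarcd3). Lost calls included Smarca4 in the combination against cisplatin (adjusted p = 0.308) and the interactions of Smarca4 (0.0796), Smarca2 (0.232) and Smarcb1 (0.0759). Over all 12941 tested genes it left 7356 called for AU15330 against DMSO, 3859 for cisplatin against DMSO and 6476 for the combination against cisplatin. It left 2456 for the combination against AU15330 and 2494 in the interaction. The sign turned with DESeq2 size factors for Actl6a in the combination against cisplatin (−0.0187) and the interaction (−1.4e-05), and with DESeq2's Wald test for the same values (−0.0185 and −0.00033). Library totals turned Actl6a with AU15330 against DMSO (0.11) and in the interaction (−0.0381), Smarcc1 and Smarcd1 in the combination against cisplatin (0.0523 and 0.0561), and Smarca4 in the combination against AU15330 (0.00591). Without the low-count filter, Smarce1 with cisplatin against DMSO (−0.00641), Actl6a in the combination against cisplatin (−0.0194) and Smarcc1 in the combination against AU15330 (−0.0209) turned. Fitting only the groups compared turned Actl6a in the combination against cisplatin (−0.0129). The first lane turned Actl6a with AU15330 against DMSO (0.0696) and in the interaction (−0.0670) and Smarcc1 in the combination against AU15330 (−0.0228). The causes were not tested.

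With libraries or replicate numbers left out, log2 fold changes that turned ranged as follows. For AU15330 against DMSO, Actl6a ranged from −0.0810 to 0.0260, and for cisplatin against DMSO, Smarce1 from −0.0437 to 0.13. For the combination against cisplatin, Smarcc1 ranged from −0.0759 to 0.0164, Smarcd1 from −0.0858 to 0.0279 and Actl6a from −0.0557 to 0.0791. For the combination against AU15330, Smarca4 ranged from −0.0389 to 0.00356 and Smarcc1 from −0.0142 to 0.0317. In the interaction, Smarce1 ranged from −0.00787 to 0.16 and Actl6a from −0.0404 to 0.0975, and the number of members called from 2, without replicate 5, to 4. The log2 ratio of Smarca4 to Smarca2 ranged from 0.12 to 0.24 for the combination against AU15330. That of Smarcc1 to Smarcc2 ranged from 0.19 to 0.27 for cisplatin against DMSO and from −0.37 to −0.26 for the combination against cisplatin. That of Smarcd1 to Smarcd2 ranged from 0.0877 to 0.18 for the combination against cisplatin and from −0.0666 to 0.0331 for the combination against AU15330. In the first lane the Smarcc1 to Smarcc2 ratio gave 0.21 (adjusted p = 0.0557, exact permutation test) for cisplatin against DMSO.

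With the replicate number as a block, the log2 ratio of Smarca4 to Smarca2 for the combination against AU15330 was 0.19 (adjusted p = 0.0469, exact test of the paired differences, from the smallest p that these pairs allow). In the comparisons whose numbers do not pair the libraries, the block added Smarcd1 with AU15330 against DMSO (−0.17, adjusted p = 0.0223), Smarca2 with cisplatin against DMSO (0.17, adjusted p = 0.0358) and Smarcc2 in the interaction (−0.29, adjusted p = 0.0269), and it ended no call of a member.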
